A study of Mus musculus with 3 samples.

Results

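The transcripts of 9 heat shock protein genes of the cytosol and the mitochondria were followed through the first days of reprogramming: Hspa8, Hsph1, Dnaja1, Hsp90aa1, Hsp90ab1, Hspd1, Hspe1, Hspb1 and Cryab. They were chosen by name, as the rows of the count table for these genes, and make up 9 of its 50507 genes. Cells were primary mouse embryonic fibroblasts (MEFs) of the BL6 strain, wild type and at passage 2, which all carried lentiviruses with rtTA and a doxycycline-driven tet-STEMCCA cassette of Oct4, Sox2, Klf4 and c-Myc. Reprogramming medium with 2 µg/mL doxycycline, chiron, an Alk5 inhibitor, ascorbic acid and LIF was shared by the induced groups. For the screen, cells had been reverse transfected after transduction with 40 nM of pooled siRNAs in RNAiMAX and re-plated the next day before induction. Screen libraries were made at day 6 of induction, per the study's methods. Its groups were 33 siRNA pools against chromatin and transcription regulators (named siWdr5 and so on), a non-targeting siRNA pool (nt) and a mock transfection (Mock). For the time course, cells were not transfected and were only re-plated, and they were sampled from Day00 to Day06. The labels name 3 sequenced pools by replicate number alone, so the column names of the count table served to assign conditions. The study's methods describe the siRNA transfections as triplicates, but the sources used here do not say whether the replicates came from separate MEF preparations, or whether each day was a separate culture per replicate. The p-values therefore measure the spread between these libraries, part of which may be technical.

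Heat shock proteins are chaperones: they bind unfolded or unstable proteins and help them fold, assemble or be degraded. Hsp70 proteins hold short unfolded stretches with the help of J proteins, Hsp90 finishes the folding of kinases, receptors and transcription factors, and the Hsp60 and Hsp10 proteins form a folding chamber in the mitochondrial matrix. Small heat shock proteins hold damaged proteins in solution without using ATP. Many of these genes are induced by heat shock factor 1, which binds repeats of the unit nGAAn in alternating orientation, the heat shock element, and several also run at a high basal level in growing cells.

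Sequences of 2 kinds are shown here as background. The first is the likeness of Hsp90aa1 and Hspd1 to their copies at the end of the coding sequence. CEL-Seq2 counts the 3′ ends of transcripts, and the last 60 coding bases of Hsp90aa1 (chr12:110691540-110691599, minus strand, GRCm38, in 1 coding exon) are shown with those of Hspd1 (chr1:55078288-55078347, minus strand) and its processed copy Hspd1-ps3 (chr11:41500399-41500458, plus strand).
Hsp90aa1: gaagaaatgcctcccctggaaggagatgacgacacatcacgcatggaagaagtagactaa
Hspd1: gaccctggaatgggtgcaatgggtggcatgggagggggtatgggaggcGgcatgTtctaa
Hspd1-ps3: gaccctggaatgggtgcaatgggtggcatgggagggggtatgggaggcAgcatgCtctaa
Capitals mark the bases that differ between Hspd1 and its copy, G49A and T55C, counted from 1 at the first base shown. For Hsp90aa1 the same 60 bases stood with 0 differences in 2 processed copies of the gene, Gm12346 (chr11:77295839-77295898, plus strand) and Gm5844 (chr3:18010937-18010996, plus strand). Reads of 3′ ends may fall beyond the stop codon, in a stretch that was not compared. These bases alone do not show whether the counted reads can be told apart.

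The second concerns the promoters. RefSeq windows on GRCm38.p6, from 250 bases before to 50 after a transcription start, were at hand for 5 of the 9 genes: Hspd1, Hspe1, Dnaja1, Hspb1 and Hsph1. The windows were searched for GAANNTTC and TTCNNGAA, the 2 pairings of heat shock units, each of which reads the same on both strands. Of the 9 windows of these genes 6 held at least 1 match, beside 15.1% of all 32851 windows. These windows are not independent: the pair for Hsph1 overlaps and holds the same matches, and those of Hspd1 and Hspe1 share theirs. A stretch of 30 bases is shown for each gene, with matches in capitals, where neighbouring matches may overlap.
Hspe1, chr1:55088053-55088082, plus strand: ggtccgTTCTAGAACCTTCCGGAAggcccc
Hspd1, chr1:55088053-55088082, minus strand: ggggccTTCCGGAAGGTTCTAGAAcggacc
Hspb1, chr5:135887801-135887830, plus strand: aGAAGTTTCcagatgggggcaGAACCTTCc
Dnaja1, chr4:40722333-40722362, plus strand: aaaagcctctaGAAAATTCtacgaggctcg
Hsph1, chr5:149636287-149636316, minus strand: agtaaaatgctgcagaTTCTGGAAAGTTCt
Hspe1 and Hspd1 lie head to head and share a single stretch of 3 overlapping matches, read here on its opposite strands. A match is a run of letters and no evidence of binding, and its part in the results below was not tested.

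The authors' quality filter kept 127 of 129 libraries: 21 of the time course, 3 of nt, 5 of Mock and 98 of the siRNAs, 3 per condition except 2 for siMtf1. The 5 Mock libraries came from the same 3 sequenced pools, with 2 under the same column name in each of replicates 1 and 2, and were fitted as separate libraries. Total UMI counts of the 127 libraries ran from 29656 to 235292, with a median of 73279, and genes of low level rest on few counts at this depth. All 9 genes were among the 3013 genes with enough counts to be tested. Levels are given as CPM, in which the counts of each library are scaled to a common total of the tested genes with TMM scaling factors. Fibroblast markers summed to between 3941 and 5548 CPM in the Day00 libraries and to between 1902 and 2448 in those of Day06, with 0 of 8 markers at 0 counts in either group, while 5 of 5 endothelial markers were at 0 counts in Day06. Macrophage markers were also detected, at 124 to 226 CPM in Day00 and 18.1 to 89.0 CPM in Day06. Only 20 of the 33 siRNA targets had a lower mean in their own libraries than in nt, and Wdr5 itself had 7 counts over the siWdr5 libraries against 9 over nt, so that at this depth the target does not check the label. Of the other pools named below for a call, the target had a higher mean than in nt in siEp300 (51.55 against 14.96 CPM, 17 against 3 counts), siBrca1 (22.3 against 7.71 CPM), siHdac1 (121.8 against 102.2 CPM), siBptf (95.4 against 76.5 CPM) and siWhsc1l1 (53.55 against 40.8 CPM). By the methods the screen ended on the day of Day06, but Day05 was more like nt. With each library taken as its deviation from the mean of the days of its replicate, nt correlated over 3013 genes with Day05 at r = 0.441 to 0.654 in the 3 replicates and with Day06 at 0.124 to 0.280. These are correlations across genes, which are not independent. Whether the columns of the time course carry the right day was not tested. The summed epithelial markers, of a cell type that fibroblasts come to resemble early in reprogramming, averaged 78.1 CPM in Day05 and 170.4 CPM in Day06, while the fibroblast markers were lower in Day05, at 1274 to 1789 CPM, than in Day06. Because of this likeness, calls of the 9 genes in nt against Day06 are given with Day05 as well. For a further list of chaperone genes Day05 is given only as a count of calls.

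Changes are log2 fold changes of the edgeR model with their standard errors (SE), and a change was called at a Benjamini-Hochberg adjusted p under 0.05. Over Day00 to Day06 together, 8 of the 9 genes varied, while 42.5% of all tested genes did. The exception was Hspa8 (adjusted p = 0.677). Against Day00, 28 of 54 pairs of gene and day were called, 15 higher and 13 lower, beside 17.5% of all such pairs over the tested genes. Without replicate 3 the pairs called were 13, and with limma 15. By day, the genes called were 4 in Day01 (9.89% of all tested genes), 5 in Day02 (11.6%), 0 in Day03 (10.9%), 6 in Day04 (18.7%), 5 in Day05 (31.9%) and 8 in Day06 (22.2%). These 6 comparisons share the Day00 libraries. Day00 marks the start of induction, so time, doxycycline and the rest of the reprogramming medium cannot be told apart in them. The genes did not move as a block: the mitochondrial chaperonin and the Hsp90 genes were higher in the calls that were made, and the small heat shock proteins, Hsph1 and Dnaja1 were lower.

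**Figure D1:**
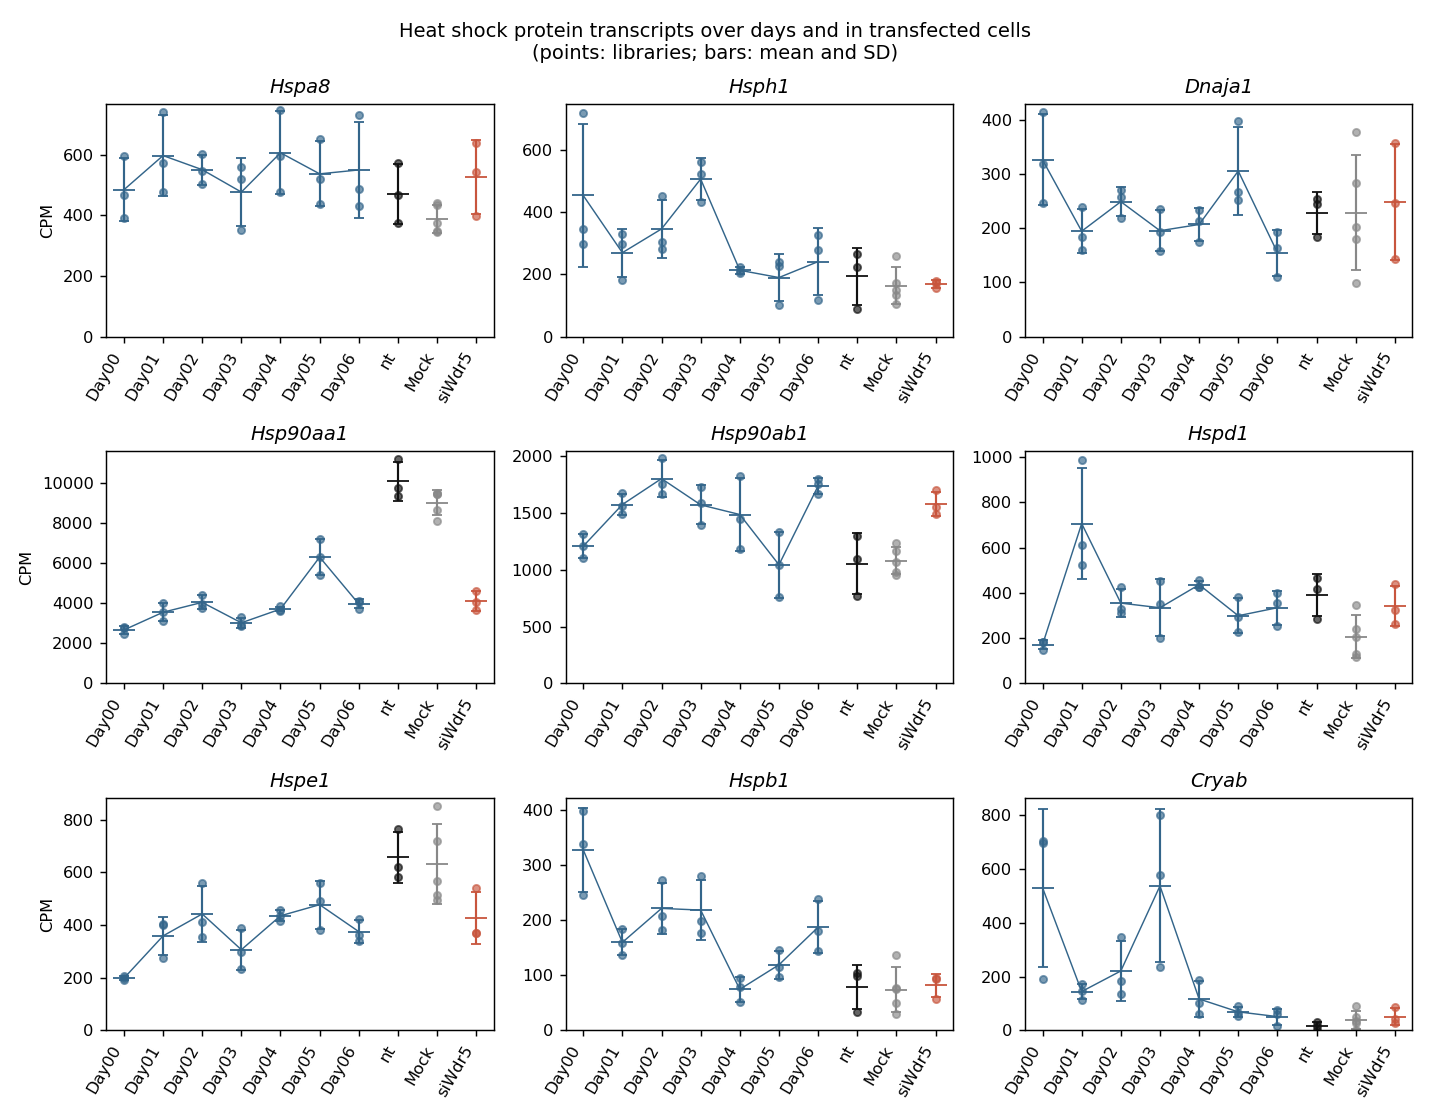
Each panel plots the CPM of a gene (vertical axis, from 0) in Day00 to Day06, nt, Mock and siWdr5 (horizontal axis); points are libraries, and bars give the mean and SD. Cryab fell from a mean of 531 CPM in Day00 to 51.2 in Day06, and Hsp90aa1 stood at 10097 CPM in nt against 3969 in Day06.

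Hspa8 encodes the constitutive cytosolic Hsp70, which folds new proteins and uncoats clathrin vesicles. Its day means lay between 476 CPM in Day03 and 606 CPM in Day04, a ratio of 1.27. Day00 libraries held 390, 466 and 596 CPM and Day06 libraries 430, 488 and 729 CPM. These groups overlapped, and the log2 change was 0.20 ± 0.22 (SE, n = 3 and 3).

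Hsph1 encodes Hsp110, which drives nucleotide exchange on Hsp70. It was called lower in Day04, Day05 and Day06. Its Day00 libraries held 718, 296 and 348 CPM and its Day06 libraries 119, 325 and 279 CPM. The groups overlapped, with the highest level in a single Day00 library, of replicate 1. The log2 change was -0.78 ± 0.30 (adjusted p = 0.0433), and without replicate 1 it was -0.12 with an adjusted p of 0.87, so that this call rests on that replicate. The change in Day05 was -1.35 ± 0.31 (adjusted p = 0.00019) and there the groups did not overlap.

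Dnaja1 encodes a J protein that delivers clients to Hsp70. It was called on 1 of the 6 days, Day06, and with the counts of its near-identical copies added also in Day03 and Day04 (log2 -0.98 and -0.88, adjusted p = 0.00969 and 0.0073). Its Day00 libraries held 246, 318 and 414 CPM and those of Day06 held 193, 163 and 109 CPM. All Day06 libraries lay below all Day00 libraries, and the log2 change was -1.25 ± 0.34 (adjusted p = 0.00304). Without replicate 3 the adjusted p was 0.366.

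Hsp90aa1 and Hsp90ab1 encode the cytosolic Hsp90 proteins, the former more inducible and the latter more constitutive. Hsp90aa1 was called higher on 4 days. Its Day00 libraries held 2812, 2456 and 2748 CPM, its Day05 libraries 5405, 7221 and 6301 CPM, and its Day06 libraries 3709, 4121 and 4077 CPM. Day05 stood above every other day, with a log2 change of 1.24 ± 0.14 from Day00 (adjusted p = 2.83e-14), against 0.57 ± 0.14 (adjusted p = 0.00104; 0.0654 without replicate 3) in Day06. From Day05 to Day06 the log2 change was -0.67 ± 0.13 (adjusted p = 0.000115), in a comparison that called 7.87% of all tested genes. Mitochondrially encoded transcripts took 13.8% to 15.7% of the counts in Day00, 20.4% to 21.5% in Day05 and 16.0% to 16.6% in Day06. They took 19.7% to 22.6% in Day03, where Hsp90aa1 was not called, and 19.9% to 20.8% in Day04, where it was. The part of this share in the changes was not tested. With its copies added Hsp90aa1 was also called in Day01 (log2 0.52, adjusted p = 0.00644). On the other days after Day00, means ran from 3029 CPM in Day03 to 4049 CPM in Day02.

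Hsp90ab1 was called higher in Day02 and Day06. Its Day00 libraries held 1314, 1101 and 1208 CPM and its Day06 libraries 1751, 1663 and 1800 CPM, without overlap. The log2 change was 0.53 ± 0.18 (adjusted p = 0.0185), but with RLE in place of TMM scaling it was 0.36 with an adjusted p of 0.145. In Day05 it stood at 1044 ± 288 CPM (SD, n = 3), the lowest day mean, where Hsp90aa1 was at its highest. From Day05 to Day06 Hsp90ab1 rose by 0.75 ± 0.17 (log2, adjusted p = 0.00107). Over the days without Day05 its adjusted p was 0.0827, with 31.8% of all tested genes called.

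Hspd1 encodes Hsp60 and Hspe1 encodes Hsp10, the barrel and the lid of the mitochondrial folding chamber. Hspd1 held 185, 148 and 182 CPM in the Day00 libraries and 986, 611 and 524 CPM in those of Day01. All Day01 libraries lay above all Day00 libraries, and the log2 change of 1.88 ± 0.29 (adjusted p = 4.75e-08) corresponds to 3.67-fold. It was the highest day for this gene, and the change in Day06 was 0.93 ± 0.31 (adjusted p = 0.0178; 0.0617 with RLE scaling). Counts behind these means were low, 38 over the Day00 libraries and 139 over those of Day01. With copies added the change in Day01 was 1.53 ± 0.24 (adjusted p = 1.89e-07). In Day01 mitochondrially encoded transcripts took 10.8% to 12.5% of the counts, against 13.8% to 15.7% in Day00. Summed fibroblast markers stood at 1490 to 2065 CPM in Day01, against 3941 to 5548 CPM in Day00. The part of these in the change was not tested.

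Hspe1 was called higher on 5 of the 6 days, all but Day03. Its libraries held 205, 191 and 199 CPM in Day00, 275, 403 and 399 CPM in Day01, and 341, 361 and 423 CPM in Day06. Day00 was below both later days in every library. The log2 change was 0.94 ± 0.29 in Day01 (adjusted p = 0.0189) and 0.96 ± 0.28 in Day06 (adjusted p = 0.00564), and without Day00 the days did not pass the test for this gene (adjusted p = 0.2375, with 32.9% of all tested genes called). Its highest day mean was 477 ± 90.7 CPM (SD, n = 3) in Day05, where that of Hspd1 was in Day01.

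Hspb1 encodes Hsp27, a small heat shock protein that also binds actin filaments. It was called lower in Day01, Day04, Day05 and Day06, and with its copies added also in Day02 (log2 -0.90, adjusted p = 0.0211). Its Day00 libraries held 246, 339 and 397 CPM and its Day04 libraries 78.5, 50.6 and 94.3 CPM. The groups did not overlap, with a log2 change of -2.16 ± 0.38 (adjusted p = 1.27e-06). In Day06 its libraries held 237, 181 and 143 CPM, a log2 change of -0.95 ± 0.34 (adjusted p = 0.0313).

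Cryab encodes alpha B crystallin, a small heat shock protein of lens, muscle and stressed fibroblasts. It was the gene with the largest fall, called lower on 5 of 6 days, and it was not steady on the way. Its libraries held 698, 191 and 703 CPM in Day00, 577, 235 and 801 CPM in Day03, and 74.2, 18.1 and 61.4 CPM in Day06. In both Day00 and Day03 the library of replicate 2 was far below the others, and all Day06 libraries lay below all of these. The log2 change was -3.33 ± 0.43 in Day06 (adjusted p = 3.87e-11), a 10.04-fold fall, against 0.02 ± 0.32 in Day03 (adjusted p = 0.981). The return in Day03 followed means of 145 CPM in Day01 and 221 CPM in Day02. Markers of muscle, a tissue that also uses Cryab, summed to between 41.05 and 99.3 CPM in Day00 and 0 to 47.7 CPM in Day06, with 6 and 5 of 9 markers at 0 counts. In Day03 they summed to between 0 and 36.1 CPM, with 8 of 9 markers at 0 counts. Fibroblast markers fell from Day00 to Day06, as given above, and summed to between 1924 and 2578 CPM in Day03. The part of either in the changes of Cryab was not tested. In bulk RNA, fewer cells of a type and less RNA per cell cannot be told apart.

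In Day06 against Day00, 8 of the 9 genes were called, 4 higher and 4 lower, beside 22.2% of all tested genes. Their median log2 change was 0.20, beside 0.05 over all genes. Between these groups the summed epithelial markers went from 0 to 20.5 CPM in Day00 to between 74.2 and 253 CPM in Day06, and 5 neural markers from between 91.04 and 212 CPM to between 232 and 326 CPM, and their part in the changes was not tested. Calls numbered 5 with Day05 in place of Day06 (31.9% of all tested genes), 4 without the replicate as a block (16.1%), and 2, those of Hsph1 and Cryab, without replicate 3, the deepest one (14.1%). In Day03, 0 of 9 were called by edgeR, DESeq2 and limma, with 5 at an unadjusted edgeR p under 0.05, beside 10.9% of all tested genes called by edgeR. With copies added, 1 was called, Dnaja1.

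Transfected and induced cells with the nt pool were then set against the untransfected Day06. The question is how a control of the screen stands to the time course. Hsp90aa1 stood out: its nt libraries held 11191, 9362 and 9738 CPM, more than every library of any day. It was higher in nt than in Day06 by 1.35 ± 0.14 (log2, adjusted p = 3.5e-17), or 2.54-fold, and higher in nt than in Day05 by 0.68 ± 0.13 (adjusted p = 6.26e-05). Mock libraries held 9470, 9511, 8100, 8639 and 9449 CPM, all above all Day05 libraries too.

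Hsp90ab1 went the other way. Its nt libraries held 1299, 1092 and 768 CPM, all below the Day06 libraries, with a log2 difference of -0.78 ± 0.18 (adjusted p = 0.000282; 0.0877 without replicate 3). Against Day05 the difference was -0.04 ± 0.18 (adjusted p = 0.946). Hspe1 held 766, 583 and 621 CPM in nt, above all Day06 libraries, and differed by 0.78 ± 0.22 (adjusted p = 0.00442; 0.0792 without replicate 1), while its difference from Day05 was 0.42 ± 0.21 (adjusted p = 0.237).

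These 3 of the 9 genes were called in nt against Day06, beside 26.6% of all tested genes. With copies added, Dnaja1 (log2 0.84, adjusted p = 0.0269) and Hspb1 (log2 -0.96, adjusted p = 0.0453) were called as well, but against Day05 they were at -0.31 and -0.43 (adjusted p = 0.545 and 0.59). In nt against Day05, 1 of 9 was called, Hsp90aa1, beside 4.81%. Of the 9 genes in Mock, 5 were called against Day06 (2 higher and 3 lower, beside 28.9%) and 1 against Day05 (beside 10.2%). For Hspb1 the difference between nt and Day06 was -1.07 ± 0.43 (adjusted p = 0.0518), and with RLE scaling the adjusted p was 0.0277. Cryab had 5 counts over the nt libraries, which leaves its difference of -1.39 ± 0.74 (adjusted p = 0.157) loosely bounded. Against Day05, Hspb1 in nt was at -0.44 (adjusted p = 0.65) and Cryab at -1.81 ± 0.69 (adjusted p = 0.109). Mitochondrially encoded transcripts took 22.8% to 26.3% of the counts in nt libraries, 16.0% to 16.6% in Day06 and 20.4% to 21.5% in Day05. The part of this in the differences was not tested.

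**Figure D2:**
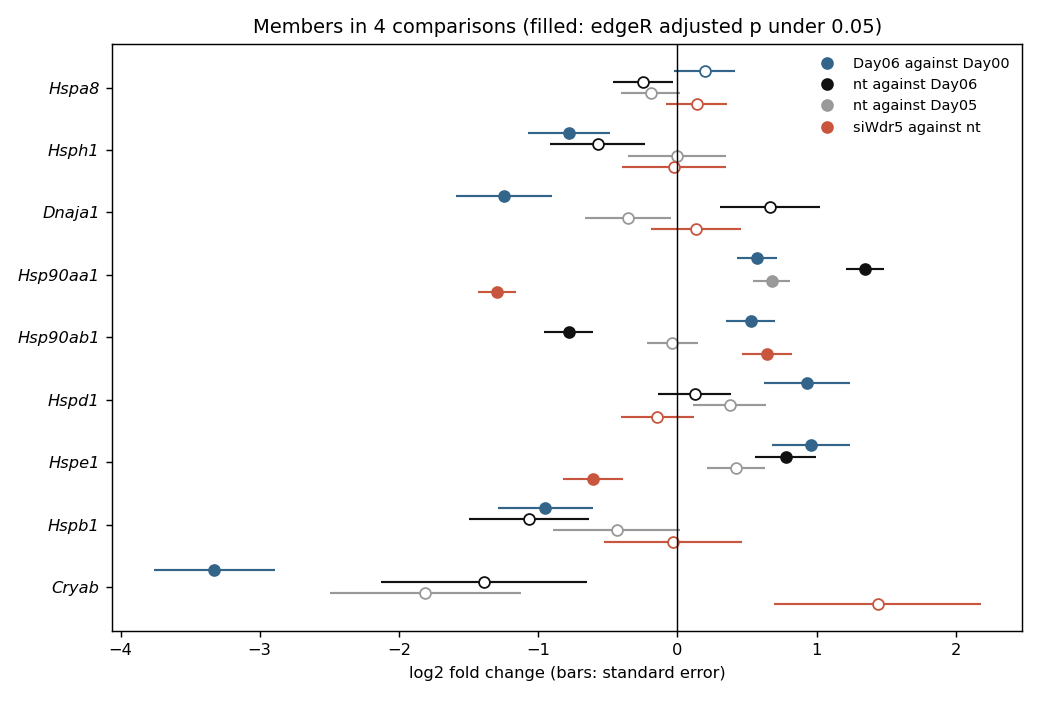
Log2 fold changes (horizontal axis) of each gene in 4 comparisons, with bars for the standard error and filled points for an adjusted p under 0.05. Hsp90aa1 was 1.35 higher in nt than in Day06 and 1.30 lower in siWdr5 than in nt, and Hsp90ab1 had the opposite sign in both.

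Mock was then compared with nt, as both are controls of the screen. By edgeR, DESeq2 and limma 0 of the 9 genes were called in Mock against nt, with 1 at an unadjusted edgeR p under 0.05. Of all tested genes edgeR called 1.56%, or 47 genes, with 349 at an unadjusted p under 0.05. The nearest to a call was Hspd1. It held 466, 419 and 286 CPM in nt and 129, 206, 115, 348 and 239 CPM in Mock. The ranges overlapped and the log2 difference was -0.84 ± 0.29 (adjusted p = 0.1115). When the counts of its near-identical copies were added, the difference was -0.84 ± 0.23 (adjusted p = 0.0326).

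Over the 33 siRNA pools and nt together, 6 of the 9 genes varied: Hspa8, Hsp90aa1, Hsp90ab1, Hspd1, Hspe1 and Cryab, beside 44.8% of all tested genes. Hsph1, Dnaja1 and Hspb1 did not pass the test (adjusted p = 0.116, 0.711 and 0.186), but with its copies added Dnaja1 did (adjusted p = 0.00597). In single pools against nt, 15 of 297 pairs of gene and siRNA were called, 11 lower and 4 higher. They make up 5.05% of the pairs, beside 2.57% over all tested genes, and numbered 8 without the replicate as a block and 6 to 8 with a replicate left out. With limma they numbered 3, of which 1 was for Hsp90aa1, and with the mean of the other siRNAs as the control or with copies added 24. Calls fell in 13 of the 33 pools, and all 33 comparisons share the 3 nt libraries.

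**Figure D3:**
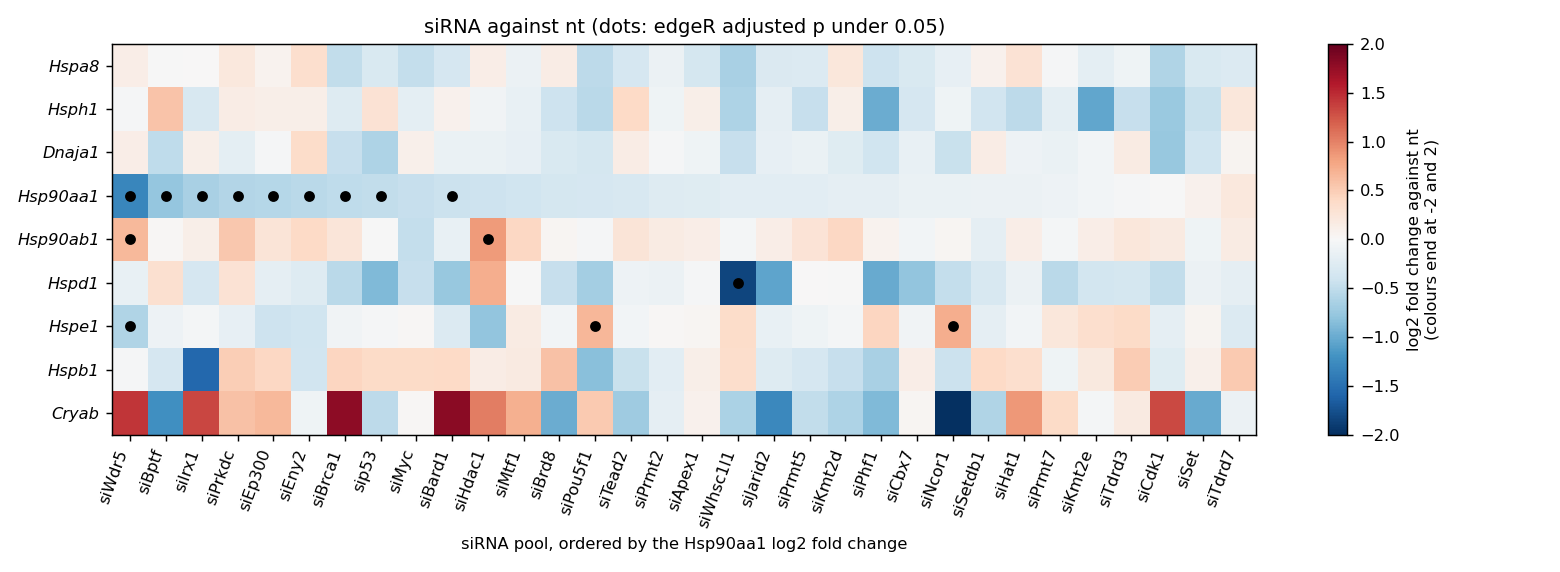
Colours give the log2 fold change of each gene (rows) in the siRNA pools (columns, all but 1 drawn) against nt, ending at -2 and 2, with dots for an adjusted p under 0.05. The dots lie mainly in the Hsp90aa1 row, with 9 of the 15 calls, all lower.

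Hsp90aa1 carried 9 of these calls, each of them lower than nt. The pools were siWdr5, siBptf, siIrx1, siPrkdc, siEp300, siEny2, siBrca1, sip53 and siBard1, and in each of them all 3 libraries lay below all nt libraries. Mitochondrially encoded transcripts took 15.8% to 19.3% of the counts in siBptf, 15.4% to 18.5% in siIrx1, 16.7% to 19.7% in siBrca1 and 18.45% to 21.35% in siEny2, all below nt at 22.8% to 26.3%, and 26.4% to 28.8% in siPrkdc. Fibroblast markers summed to between 745 and 935 CPM in siBptf and 2675 and 3759 CPM in sip53, against 1348 to 2098 CPM in nt. Epithelial markers summed to 26.4 to 56.9 CPM in siWdr5 and 0 to 62.5 CPM in siBard1, below nt at 98.0 to 150 CPM. They summed to 208 to 347.5 CPM in siPrkdc and 189 to 228 CPM in sip53, above nt. In the other pools of this list they overlapped nt. The part of these in the calls was not tested. The changes ran from -1.30 ± 0.13 in siWdr5 to -0.43 ± 0.13 in siBard1 (log2, adjusted p = 2.54e-16 and 0.0163). The share of all tested genes called was 27.2% in siWdr5, 1.16% in siBptf, 2.02% in siIrx1, 1.76% in siPrkdc, 5.68% in siEp300, 1.89% in siEny2, 4.22% in siBrca1, 1.96% in sip53 and 10.3% in siBard1. With limma the call in siWdr5 stood and the other 8 did not. Of 12 alternative settings, the call in siWdr5 stood in 12, that in siBptf in 11 and that in siIrx1 in 10, while those in siBard1, siEny2 and sip53 stood in 5, 5 and 4. In siWdr5 the libraries held 4623, 4065 and 3645 CPM, the lowest mean of the transfected groups, between those of Day02 and Day05. In siBptf they held 5681 to 6262 CPM, the next lowest.

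Over the siRNA libraries Hsp90aa1 ran from 3645 CPM through a median of 8379 CPM to 12799 CPM. The log2 change was under 0 in 31 of the 33 pools, with a median of -0.25. Since nt was the third highest of the 42 condition means, the signs cannot be told apart from the place of nt itself. With the mean of the other siRNAs as the control, siBard1, siBrca1, siEny2, siPrkdc and sip53 were not called. Mock, at 9034 ± 636 CPM (SD, n = 5 libraries of 3 replicates), lay below nt at 10097 ± 966 CPM (SD, n = 3), and the difference did not pass the test (log2 -0.15 ± 0.12, adjusted p = 0.675). Neighbours in this order, such as siBard1, siHdac1 and siMtf1 with means of 7480, 7520 and 7540 CPM, differed by less than their spread.

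**Figure D4:**
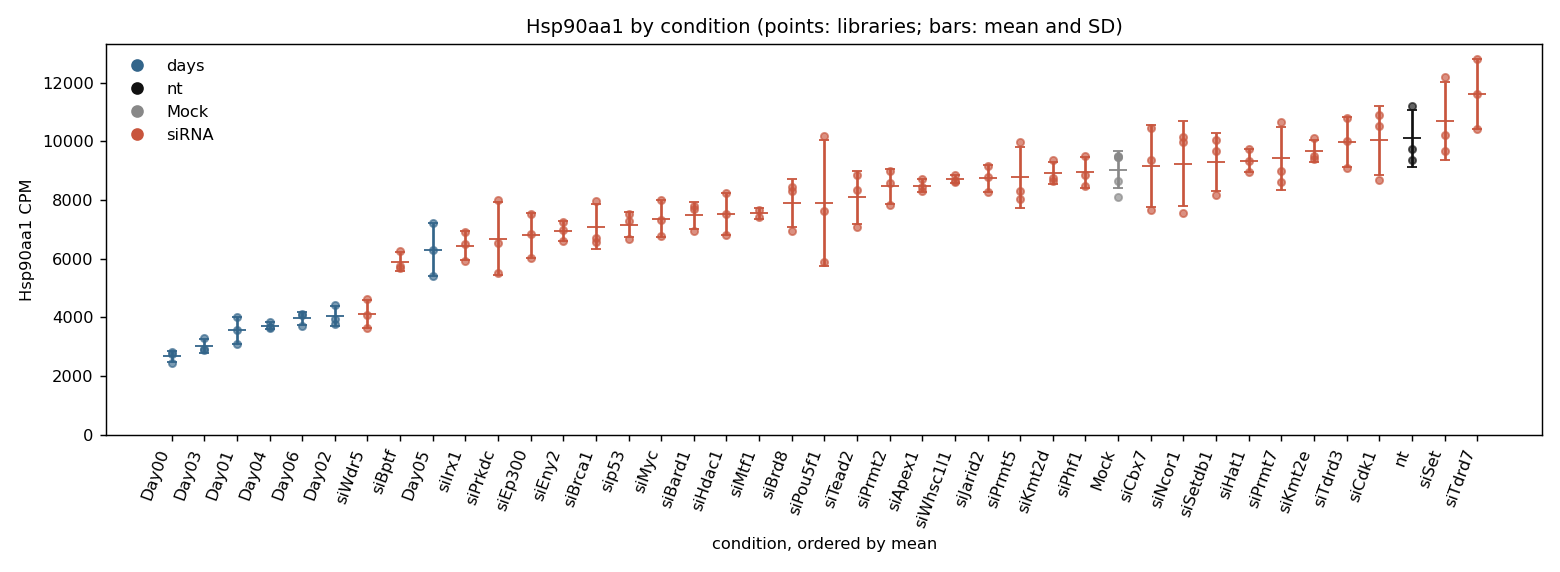
Hsp90aa1 CPM (vertical axis, from 0) in the 42 conditions (all but 1 drawn) ordered by mean, with a point per library and bars for the mean and SD. The days other than Day05 lie at the low end, followed by siWdr5 at 4111 CPM, and the other transfected groups lie from 5896 CPM in siBptf to 11605 CPM in siTdrd7, with Day05 at 6309 CPM beside siBptf.

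Hsp90ab1 was called in 2 pools, both higher. In siHdac1 its libraries held 2406, 1877 and 1413 CPM, the highest mean of all conditions, and the change from nt was 0.85 ± 0.19 (log2, adjusted p = 0.00425), in a pool that called 1.06% of all tested genes. This call stood in 8 of the 12 alternative settings, and it was lost without the replicate as a block and without replicate 1 or 2. In siWdr5 they held 1492, 1549 and 1699 CPM, a change of 0.64 ± 0.18 (adjusted p = 0.0032; 0.198 without replicate 3). All libraries of both pools lay above all nt libraries.

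Hspd1 was called in siWhsc1l1, where its libraries held 113, 92.6 and 97.2 CPM against 286 to 466 CPM in nt. The change of -1.84 ± 0.38 (log2, adjusted p = 0.000361) rests on 16 counts in siWhsc1l1 and 91 in nt, beside 1.76% of all tested genes called in this pool. It was a 3.59-fold lower level and the lowest mean of the gene in any condition. Mock, with a mean of 207 CPM, lay between them.

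Hspe1, its partner, was called in 3 pools. It was higher in siNcor1, with libraries of 775, 984 and 1371 CPM, and in siPou5f1, with 1126, 780 and 1138 CPM, by 0.72 ± 0.20 and 0.66 ± 0.20 (log2, adjusted p = 0.0118 and 0.0253). Of all tested genes, 4.45% were called in siNcor1 and 5.77% in siPou5f1. Summed fibroblast markers stood at 800 to 923 CPM in siPou5f1 and 1371 to 1937 CPM in siNcor1, against 1348 to 2098 CPM in nt. Their part in the calls was not tested. These calls stood in 7 and 6 of the 12 alternative settings, and both were lost without the replicate as a block and without replicate 2 or 3. Hspe1 was lower in siWdr5, with 542, 370 and 370 CPM, by -0.61 ± 0.22 (adjusted p = 0.0249), but this call stood in only 4 of the 12 alternative settings, and with RLE scaling the adjusted p was 0.112. In siHdac1 Hspd1 had its highest change, 0.72, and Hspe1 its lowest, -0.79, neither of them called. Over the 42 condition means, r between Hspd1 and Hspe1 was -0.30 on the log2 scale, given as a description since the conditions share the sequenced pools and differ in depth. The exons of these genes overlap on opposite strands at their starts (Hspd1 chr1:55077835-55088243, minus, and Hspe1 chr1:55088132-55091307, plus). CEL-Seq2 counts the opposite, 3′ ends. Whether the counting used strand is not given in the sources used here.

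Hspa8 varied over the pools as a whole (adjusted p = 0.000667) with 0 single pools called by edgeR, DESeq2 and limma and 4 at an unadjusted edgeR p under 0.05. Its changes lay between -0.64 in siWhsc1l1 and 0.33 in siEny2. Hsph1 lay between -1.05 in siKmt2e and 0.57 in siBptf, and Dnaja1 between -0.76 in siCdk1 and 0.37 in siEny2. Hspb1 lay between -1.57 in siIrx1, where it had 8 counts, and 0.59 in siBrd8. None of these was called by edgeR, DESeq2 or limma, and at an unadjusted edgeR p under 0.05 stood 2 pools for Hsph1, 1 for Dnaja1 and 1 for Hspb1.

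Cryab also had 0 pools called by edgeR, DESeq2 and limma and 3 at an unadjusted edgeR p under 0.05, with 26 of the 33 pools at 10 counts or fewer and 13 at 3 or fewer. In siNcor1 it was at 0 of 260244 counts, where 3 counts would be 11.5 CPM of the total and the exact 95% interval reaches 14.2 CPM, and in nt it had 5 of 298392. Its highest means among the pools were in siBard1, with libraries of 95.8, 68.5 and 62.5 CPM, and siBrca1, with 41.3, 45.6 and 106 CPM. In nt its libraries held 0, 15.0 and 32.7 CPM. The difference of siBard1 from nt, 1.80 ± 0.71 (log2, adjusted p = 0.0861), did not pass the test. Intervals and floors cover counting error only.

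In siWdr5 against nt, taken alone, 3 of the 9 genes were called, Hsp90aa1 and Hspe1 lower and Hsp90ab1 higher, beside 27.2% of all tested genes, the most of any pool. Their median log2 change was -0.03, beside 0.00 over all genes. They are the genes called in nt against Day06, each here with the opposite sign. The comparisons share the nt libraries, so the signs are not independent. The siWdr5 calls of Hsp90ab1 and Hspe1 were both lost with limma, without the filter on low counts and without replicate 3. The levels themselves were 4111 ± 490 CPM in siWdr5 and 3969 ± 226 CPM in Day06 for Hsp90aa1, 1580 ± 107 and 1738 ± 69.3 CPM for Hsp90ab1, and 427 ± 99.1 and 375 ± 42.4 CPM for Hspe1 (SD, n = 3 each). In Day05 they were 6309 ± 908 CPM for Hsp90aa1, 1044 ± 288 CPM for Hsp90ab1 and 477 ± 90.7 CPM for Hspe1, and of these genes Hsp90aa1 alone was called in nt against Day05. Means of earlier days also lay near those of siWdr5, with 4049, 1802 and 442 CPM for these genes in Day02 and 3715, 1486 and 435 CPM in Day04. Fibroblast markers summed to between 3606 and 4338 CPM in siWdr5 and 1348 to 2098 CPM in nt, and epithelial markers to between 26.4 and 56.9 and 98.0 to 150 CPM. Their part in the result was not tested.

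A further list of 74 chaperone genes was described beside the 9, of which 37 were tested. In Day06 against Day00, 5 of the 37 were called, 2 higher and 3 lower, beside the 22.2% of all genes given above, with a median log2 change of 0.15. With Day05 in place of Day06 the count was 8, beside 31.9%, and it also moved with a replicate left out, as given below. The genes that were lower in Day06 were Hspa4l, Hspa1b and Dnajb6. Hspa4l, an Hsp110 relative of Hsph1, fell from 517 ± 302 to 104 ± 22.4 CPM (SD, n = 3 each; log2 -2.43 ± 0.38, adjusted p = 3.15e-08). Hspa1b, the stress-induced Hsp70, fell from 118.9 ± 97.7 to 4.5 ± 7.9 CPM (log2 -3.98 ± 0.83, adjusted p = 5.99e-05). It had 34 counts over Day00 and 2 over Day06, a ratio of 19.9 with an exact 95% counting interval of 5.09 to 170.5. That interval leaves out the spread between libraries. Reads of Hspa1b may be shared with the near-identical Hspa1a. Dnajb6, a J protein that prevents aggregation, fell from 378 ± 47.6 to 196 ± 74.2 CPM.

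The genes that were higher were Ptges3 and Cct8. Ptges3 encodes the Hsp90 cochaperone p23 and rose from 354 ± 22.7 to 625.1 ± 38.4 CPM. Cct8 encodes a subunit of TRiC, the cytosolic folding chamber for actin and tubulin, and rose from 366 ± 72.65 to 632 ± 80.0 CPM. Of the 8 TRiC genes tested it alone was called by edgeR in this comparison.

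In nt against Day06, 5 of the 37 were called, 3 higher (Dnajc21, Cct5 and Cct8) and 2 lower (Stip1 and Cct3), beside 26.6% of all tested genes, with a median of -0.29 beside -0.01 over all genes. Stip1, which bridges Hsp70 and Hsp90, stood at 63.3 ± 26.2 CPM in nt and 167 CPM in Day06. Against Day05, 1 of the 37 was called, beside 4.81%. The 5 calls numbered 0 without replicate 2 and without the filter, 3 without replicate 1 or 3, 2 without the replicate as a block and 1 with limma.

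In siWdr5 against nt, 8 of the 37 were called, all lower, with a median of -0.17. They were Grpel1, the nucleotide exchange factor of mitochondrial Hsp70, the J proteins Dnajc8 and Dnajc21, the prefoldin subunit Pfdn5, the TRiC subunits Cct5, Cct4 and Cct8, and the Hsp90 cochaperone Chordc1. Of these, Dnajc21, Cct5 and Cct8 were also the ones called higher in nt than in Day06, with the same nt libraries. The siWdr5 libraries overlapped those of nt for Dnajc21 and Chordc1. The largest change was that of Grpel1, from 201 to 67.0 ± 24.1 CPM (log2 -1.46 ± 0.43, adjusted p = 0.00604). Cct8 went from 894 to 534 ± 91.5 CPM, but it was also lower in Mock than in nt, at 558 ± 135 CPM (adjusted p = 0.0497), and both comparisons use the same nt libraries. The 8 calls of 37 stand beside 27.2% of all tested genes, and numbered 3 to 4 with a replicate left out, 5 with DESeq2 and without the replicate as a block, 2 without the filter and 0 with limma.

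Near-identical copies of these genes held a large share of the counts. Gene models are those of GENCODE vM21. Copies at 90% identity or more over at least 200 bases held 46.9% of the summed counts of Hsp90aa1 and its copies, 54.2% for Hspa8, 50.5% for Hspd1, 42.4% for Dnaja1, 33.6% for Hspb1, 12.9% for Hspe1 and 6.02% for Hsp90ab1. Hsph1 and Cryab had 0 such copies in the count table. The absolute levels of the genes with copies are therefore uncertain, and only ratios within a row were read.

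How closely the copies followed their parents across conditions differed between genes. Gm12346 took 29.8% to 36.9% of the counts of itself and Hsp90aa1 over the 42 conditions, with r = 0.98 between the log2 condition means. Gm5844 took 22.1% to 27.7% (r = 0.98), and Hspd1-ps3 took 42.4% to 62.8% of the counts of itself and Hspd1 (r = 0.85). For the main copies of the other genes r was lower, at 0.71 for Hspe1-ps2 of Hspe1, 0.65 for Hsp25-ps1 of Hspb1 and 0.62 for Gm15459 of Hspa8. It was lowest, at 0.53, for Gm15542 of Dnaja1, which took 11.1% to 39.4% of the counts of itself and its parent. With all copies added to the parents, Hsp90aa1 was 1.44 ± 0.14 higher in nt than in Day06 (log2, adjusted p = 8.35e-19), 0.70 ± 0.13 higher than in Day05 (adjusted p = 5.86e-05), and at -1.33 ± 0.14 in siWdr5 against nt (adjusted p = 1.3e-16). Hspd1 in siWhsc1l1 was at -1.56 ± 0.29 (adjusted p = 5.38e-05), and Hspd1 was also called lower in pools that included siBard1, siJarid2, siNcor1, sip53, siPhf1 and siPou5f1. In Day06 against Day00 Hspd1 was then at 0.53 with an adjusted p of 0.138.

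**Figure D5:**
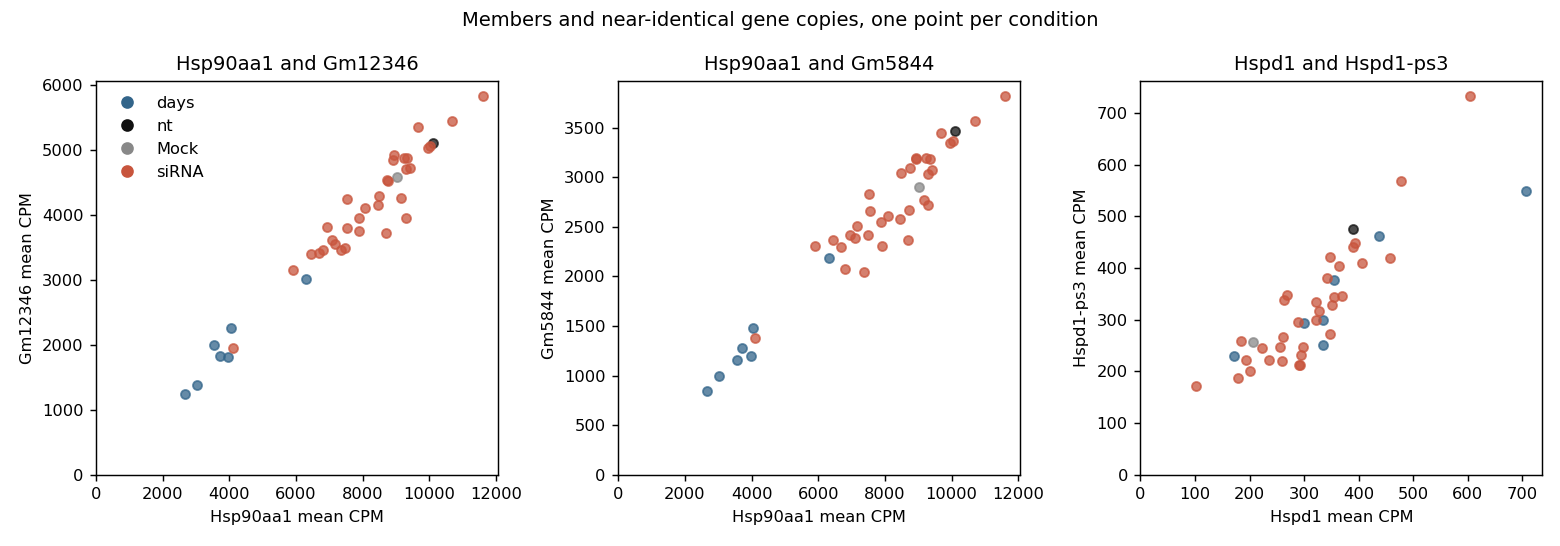
Mean CPM of 3 copies (vertical axes) against that of their parent gene (horizontal axes), with a point per condition. The points of Gm12346 and Gm5844 lie along lines with Hsp90aa1 (r = 0.98 for both), and those of Hspd1-ps3 scatter more widely around Hspd1 (r = 0.85).

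As a description of likeness, the log2 condition means of each gene were correlated with those of 2808 other genes with at least 50 CPM. The nearest to Hsp90aa1 were its copies Gm12346 and Gm5844, and the nearest to Hspd1 was Hspd1-ps3. Cryab was nearest to Anxa5 (r = 0.88) and Ier3 (r = 0.87), and Hspb1 to Ier3 (r = 0.74) and Atp1b3 (r = 0.68). Hsph1 was nearest to Scd2 and Cnn3 (r = 0.79 and 0.78), Hsp90ab1 to Slc25a3 (r = 0.78) and Hspe1 to Gm8019 and Gm15427 (r = 0.91 and 0.90). Hspa8 and Dnaja1 had no neighbour above 0.70, Hspa8 being nearest to Syncrip (r = 0.67) and Ywhaz (r = 0.66) and Dnaja1 to Tes (r = 0.61) and Abi1 (r = 0.60). Among the 9 genes, the highest r was that of Hsp90aa1 with Hspe1 (0.76) and the lowest that of Hsp90aa1 with Cryab (-0.81). The 2 Hsp90 genes had r = -0.56. All these points share the same libraries and their depth.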

How the data were processed

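Single-barcode CEL-Seq2 libraries were analysed from 3 sequenced pools. The deposited counts are UMI-corrected transcript counts per gene, which the authors made by mapping to mm10 with Bowtie2 and matching to GENCODE vM13, and the authors also deposited log2 CPM values with the batch regressed out, for 10568 genes and the libraries that passed their quality filter. Conditions were read from column names and the pool was the replicate. The third pool held 2 Mock columns matching 1 passed column, and the one with r = 0.925 to it was used (the other had 0.0376). Total counts per library bound the precision, as given in the report.

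Counts were fitted with edgeR 4.0.16 (R 4.3.3; TMM, filterByExpr, quasi-likelihood test) with condition and replicate as terms over all 127 libraries, leaving 83 residual degrees of freedom and 3013 genes, and p-values were Benjamini-Hochberg adjusted over these within a comparison. The replicate block follows the batch regression of the study; deviations from condition means had a median r of 0.0919 between libraries of the same pool and -0.063 between pools. CPM uses the tested genes' total after TMM scaling. Correlations used log2(CPM + 20). Named were all members, up to 8 called chaperones per comparison with the same sign in every replicate, and the 2 genes most like each member; 1 such gene and the values of 1 siRNA pool are not reported here. The members, gene lists and tests were chosen with earlier results of these data known. On simulated counts for Day06 against Day00 over 3013 genes, 15% of 100 genes changed 2-fold and 72% of 100 changed 4-fold were recovered, with 5 false calls. Near-identical copies were found with BLAST+ 2.17.0 on GENCODE vM21 (GRCm38). Alternatives were RLE factors, no filter, DESeq2 1.42.0, limma 3.58.1 on the deposited log2 values, no block, each replicate left out, all 129 libraries, and other controls. Adding the copies, Day05 in place of Day06, Mock against Day05 and Day06, and leaving out each day were chosen after seeing the data.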

Additional observations from a re-analysis of the deposited data

Results flagged for a closer look

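Of the 129 libraries, 2 had not passed the authors' filter and entered no comparison, siMtf1 of replicate 3 with 7981 total counts and Mock of replicate 3 with 6403. In them, 4 values, of 3 genes, lay above the highest nt library, on the scale of CPM of the total. In siMtf1 replicate 3, Hspa8 was at 877.1 (7 counts; highest nt library 489.0) and Cryab at 250.6 (2 counts; highest nt library 27.94). In Mock replicate 3, Hspb1 was at 312.4 (2 counts; highest nt library 87.35) and Cryab at 156.2 (1 count; highest nt library 27.94). At 1 to 7 counts these values are loosely bounded, and whether they differ from nt was not tested.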

How the results depend on the processing

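Depth bounds the genes with few counts, such as Cryab. Of 288 recomputed log2 changes of single genes, 209 kept direction and side of the threshold, 43 lost the call, 7 gained it and 29 changed sign, none of the last a called change. RLE factors moved the median log2 change of all genes from 0.05 to -0.11 (Day06 against Day00), -0.01 to -0.154 (nt against Day06) and 0.00 to 0.178 (siWdr5 against nt). The causes of the changes below were not tested. Without the replicate block the calls were 4 of 9 in Day06 against Day00 (8 with it), 8 siRNA pairs (15) and, of the other chaperones, 2 in nt against Day06 (5) and 5 in siWdr5 (8). With limma on the deposited log2 values there were 15 day pairs (28), 3 in Day06 against Day00, 3 siRNA pairs, 1 in siWdr5 (3) and, of the chaperones, 1 in nt against Day06 and 0 in siWdr5. Without the filter, which tests 30778 genes, there were 4 in Day06 against Day00, 1 in siWdr5 and 0 and 2 chaperones in nt against Day06 and siWdr5. DESeq2 called 5 chaperones in siWdr5. The mean of the other siRNAs as control gave 24 siRNA pairs. Adding the copies gave 5 in nt against Day06 (3), 1 in Mock against nt (0) and 24 siRNA pairs. Day05 in place of Day06 gave 5 in the first comparison and 1 in nt, with 8 and 1 chaperones. With a replicate left out, calls ran from 13 to 24 (day pairs), 2 to 7 (Day06 against Day00), 6 to 8 (siRNA pairs), 1 to 3 (siWdr5) and, for the chaperones, 2 to 6 (Day06 against Day00), 0 to 3 (nt against Day06) and 3 to 4 (siWdr5).

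Changes of sign were those of uncalled differences. In nt against Day06, Hspd1 was at -0.023 with RLE, -0.017 with DESeq2 and -0.047 with limma, and with a replicate left out it ran from -0.123 to 0.444 and Hsph1 from -1.106 to 0.168. In siWdr5 against nt, Hsph1 was at 0.151 with RLE, 0.158 with DESeq2, 0.029 with all libraries, 0.087 with nt and Mock as control and 0.188 with the other siRNAs as control. Hspd1 was at 0.036 with both RLE and DESeq2, 0.276 with nt and Mock and 0.233 with the other siRNAs as control. Hspb1 was at 0.14 with RLE, 0.148 with DESeq2, 0.099 with limma, 0.004 without the replicate block, 0.021 with all libraries, 0.106 with nt and Mock and 0.008 with copies added, and Dnaja1 at -0.011 with limma. With a replicate left out, these ran from -0.502 to 0.265 (Hsph1), -0.33 to 0.117 (Hspd1), -0.36 to 0.205 (Hspb1), -0.31 to 0.358 (Dnaja1) and -0.209 to 0.359 (Hspa8).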
